A study of Mus musculus with 16 samples.

Results

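Genes of the lysosome, the acidic compartment in which cells take apart proteins, sugars and lipids, were followed through RNA sequencing of mouse liver. The 35 were named by symbol, as 10 proteases, 7 glycosidases and sulfatases, 6 lipid hydrolases and lipid-handling proteins, 7 membrane proteins and channels, and 5 subunits of the proton pump. All 35 were found among the 27288 genes of the deposited table, and all 35 were among the 13256 genes tested. Ctss, Cd68 and Laptm5, which are abundant in phagocytes such as Kupffer cells, the resident macrophages of the liver, are set against the other 32.

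The livers came from C57BL/6 mice aged 8 to 10 weeks, in 4 groups of 4 libraries. Wild-type mice and mice labelled L-Dnm1l KO, a liver-specific deletion of the mitochondrial fission GTPase encoded by Dnm1l, were each studied on a control diet and after Gao-Binge ethanol, a model that combines feeding of ethanol in the diet with a final binge dose. The promoter that drove the deletion is not given in the sources used here. Whether every library is a different mouse is not stated, so p-values here refer to the spread among libraries, which may be technical.

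Depth ran from 11425136 to 13864862 reads per library. Values are normalised reads, the read count of a gene divided by a size factor of its library. Dnm1l ranged from 580.6 to 707.0 normalised reads in wild-type control libraries and from 538.6 to 708.7 in control libraries labelled knockout, and from 697.4 to 777.6 and 730.1 to 949.1 on ethanol. Its total did not separate the genotypes (log2 -0.05, limma adjusted p = 0.825, and 0.11, limma adjusted p = 0.590), and it does not check the labels, since reads outside a deleted stretch are counted too. Hepatocyte markers were at the levels of liver, with Alb from 718685 to 1266037 normalised reads. Wild-type control library 2 stood apart in its macrophage markers, and ethanol libraries 1 and 4 labelled knockout held transcripts of pancreas (library 1) and of blood and fat (library 4).

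Lysosomal hydrolases are made in the endoplasmic reticulum, tagged with mannose 6-phosphate and delivered to a compartment that the vacuolar proton pump keeps acidic. Membrane proteins such as Lamp1 and Lamp2 line that compartment, and channels and exporters release ions and breakdown products. Many of these genes are controlled by the transcription factors TFEB and TFE3, which bind a short element, called CLEAR, built around the E-box CACGTG. In liver, hepatocytes use lysosomes for autophagy and lipid breakdown, and Kupffer cells use them to digest what they engulf.

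The promoters were searched for the E-box on which that control is known to act, and examples are printed because more of the members held it than of all genes, though fewer than 1 in every 2 members did. RefSeq promoter windows (build GRCm38.p6, 250 bases before to 50 after a start) were matched for 29 of the 35. CACGTG, which reads the same on both strands, stood in the windows of 12 of these 29 members (41.4%) and in those of 8.09% of 27025 genes. TCACGTGA, which contains it, stood in 6 members (20.7%) against 1.12% of genes. The full 10-base CLEAR element was in the windows of 0 of 29 members and of 0.37% of genes. Lamp1 holds 4 copies of the E-box within 68 bases, just before its start at chr8:13159092-13159159 on the plus strand and outside annotated exons. The other sites below lie at chr2:164833770-164833791 on the plus strand for Ctsa, chr7:142387912-142387933 on the minus strand for Ctsd, chr8:3500466-3500487 on the plus strand for Mcoln1, chrX:134601219-134601240 on the minus strand for Gla, and chr16:44139377-44139398 on the minus strand for Atp6v1a. Those of Ctsa, Ctsd, Mcoln1 and Gla overlap an annotated exon of any gene, and that of Atp6v1a does not. The Gla site lies outside the annotated Gla gene (chrX:134588149-134601125). Capitals mark the E-box.
Lamp1: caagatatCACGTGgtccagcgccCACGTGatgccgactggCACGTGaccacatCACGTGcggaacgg
Ctsa: cagatgctCACGTGaccagagc
Ctsd: ccgcgtctCACGTGacccgttg
Mcoln1: gccccgctCACGTGaccgcggc
Gla: cgattgatCACGTGagcatcta
Atp6v1a: ttttaaatCACGTGataggctt

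Cathepsin S, the phagocyte-rich protease, has no CACGTG in its window. Across its start, at chr3:95526776-95526799 on the plus strand and overlapping an annotated exon, it holds GAGGAAGT, a PU box of the kind bound by the macrophage factor PU.1, read on the minus strand and shown in capitals. That motif was searched on both strands and stood in 4 of 29 members (Ctsc, Ctss, Gla and Gusb, 13.8%) and in 3.69% of genes. The windows of Cd68 and Laptm5 hold neither motif, and a match describes letters, not binding.
Ctss: gaaagttcACTTCCTCattgtgga

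Levels were compared between genes only per kilobase of exon. In wild-type control libraries the highest were Lamp1, the main glycoprotein of the lysosomal membrane, at 2504 ± 64.5 normalised reads per kb (SD, n = 4), the carboxypeptidase cathepsin Z (Ctsz) at 2098 ± 162 and Psap, the precursor of the saposins that help glycosphingolipid breakdown, at 1911 ± 82.8. Cathepsins L, B and D followed at 1168, 1153 and 1061 per kb. Ctss stood at 208 ± 101 per kb, Cd68, a macrophage relative of the Lamp proteins, at 53.0 ± 22.5, and Laptm5, a lysosomal membrane protein of blood cells, at 30.0 ± 14.5. The lowest were Gla at 22.8, Sgsh at 15.9 and Cd63 at 9.0 per kb. The length was that of all annotated exons of a gene together, so this order depends on the annotation. It was 6489 bases for Ctsl, 2675 for Lamp1 and 1441 for Ctsz. Before division by length, the means of Lamp2, Ctsl and Ctsb (9465, 7576 and 6978 normalised reads) lay above that of Lamp1 (6698) in wild-type control libraries.

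The genotype difference among the members was largest in the phagocyte-rich 3, on both diets. On control diet 9 of the 35 members were called (25.7%), where 11.6% of all genes were. Of the 9, 8 were higher in libraries labelled knockout and 1 was lower, against 6.4% and 5.24% of all genes (9 and 0 with upper-quartile factors). On ethanol 6 were called (17.1%) against 9.88% of all genes, 5 higher and 1 lower against 6.13% and 3.75%. The phagocyte-rich 3 were called higher in both comparisons. Of the other 32, 6 (18.8%) were called on control diet and 3 (9.38%) on ethanol, the latter a share near that of all genes. The other 32 had a median log2 difference of 0.04 on control diet and 0.10 on ethanol, and the phagocyte-rich 3 had 1.16 on control diet. The median over all genes was within 0.03 of 0 in both.

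**Figure D1:**
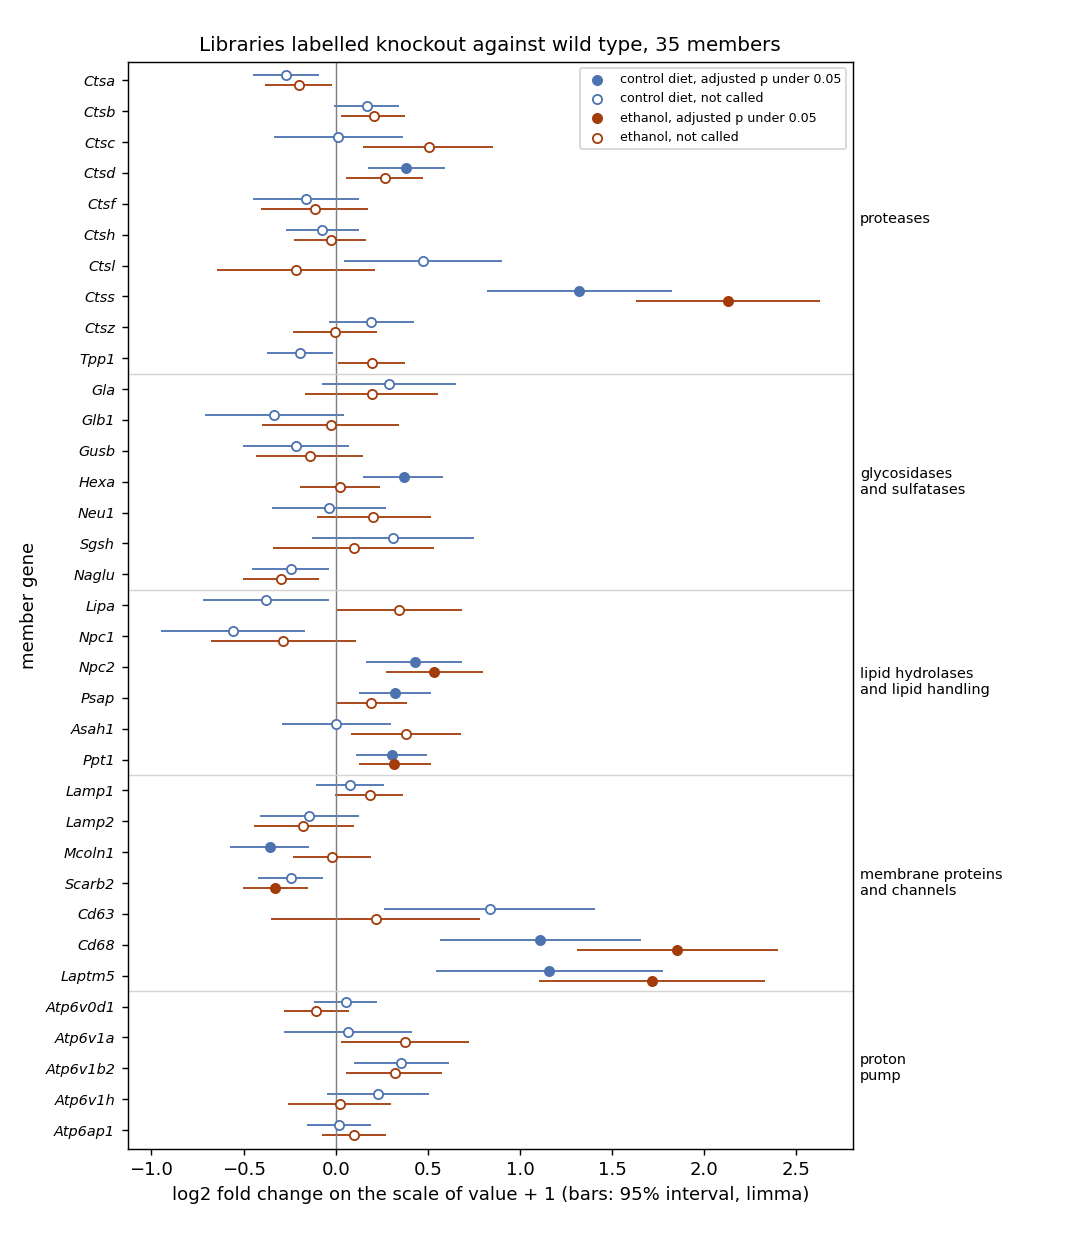
Log2 fold change between libraries labelled knockout and wild-type libraries for the 35 members, by role, on control diet and on ethanol, with 95% intervals from limma and filled points for adjusted p under 0.05. Ctss, Cd68 and Laptm5 lie farthest to the right, above 1 on both diets, and the other members lie within 1 of 0.

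Cathepsin S, which cuts the invariant chain in antigen-presenting cells, had 209.0, 489.1, 212.1 and 222.1 normalised reads in the wild-type control libraries and 493.2, 854.0, 543.2 and 831.2 in the control libraries labelled knockout. The groups did not overlap, but wild-type library 2 lay just under the lowest library labelled knockout. Ctss rose 2.50-fold (95% interval 1.77 to 3.54, limma adjusted p = 0.00167). On ethanol it had 170.8, 131.7, 121.7 and 135.6 normalised reads in wild type and 636.4, 671.2, 553.5 and 586.1 in the libraries labelled knockout. Every library labelled knockout was far above every wild-type library there, and Ctss rose 4.37-fold (3.09 to 6.18, limma adjusted p = 1.2e-05).

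Cd68 had 70.01, 105.4, 47.64 and 43.6 normalised reads in the wild-type control libraries and 126.4, 133.5, 125.2 and 163.9 in those labelled knockout. It had 44.22, 33.79, 69.67 and 46.74 in wild type on ethanol and 142.6, 143.0, 187.7 and 231.9 in the ethanol libraries labelled knockout. The genotypes did not overlap on either diet. Cd68 rose 2.16-fold on control diet (1.48 to 3.15, limma adjusted p = 0.0107) and 3.62-fold on ethanol (2.48 to 5.28, limma adjusted p = 0.000127).

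Laptm5 had 115.4, 187.9, 93.01 and 58.13 normalised reads in the wild-type control libraries and 205.1, 307.7, 187.8 and 252.1 in those labelled knockout. It had 95.82, 75.74, 58.52 and 41.24 in wild type on ethanol and 210.5, 241.1, 186.9 and 226.1 in the ethanol libraries labelled knockout. On control diet wild-type library 2 reached the lowest library labelled knockout, and on ethanol the groups lay apart. Laptm5 rose 2.23-fold on control diet (1.46 to 3.42, limma adjusted p = 0.016) and 3.29-fold on ethanol (2.15 to 5.03, limma adjusted p = 0.000877). The control call of Laptm5 needed wild-type control library 4, without which it was lost (log2 0.88, limma adjusted p = 0.0583), and control library 2 labelled knockout (log2 1.03, limma adjusted p = 0.0513).

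**Figure D2:**
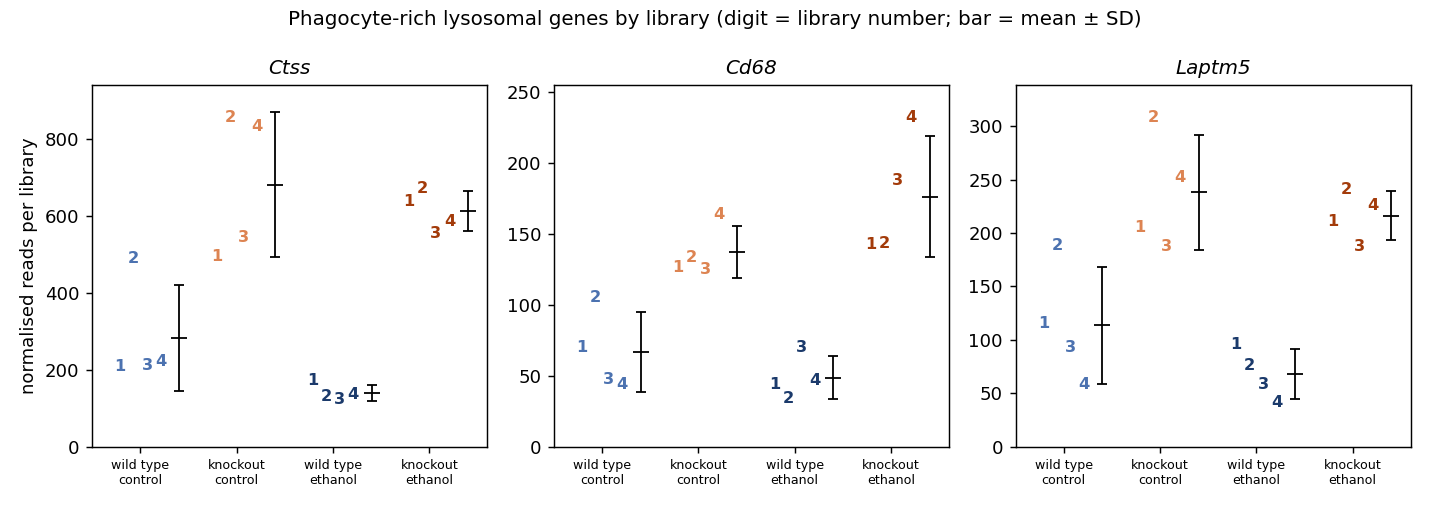
Normalised reads of Ctss, Cd68 and Laptm5 in each of the 16 libraries by group, each digit a library number, with the mean and SD of 4 libraries beside them. Ethanol libraries labelled knockout lie above all ethanol wild-type libraries for all 3 genes, and wild-type control library 2 lies above the other wild-type control libraries.

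Between genotypes, macrophage markers differed in the same direction as these 3 genes. Of 15 markers of Kupffer cells and macrophages, 10 were called higher on control diet and 15 on ethanol in the libraries labelled knockout, and 0 were called lower by limma in either comparison, all 15 differences being positive. Their summed level was 3297 to 7448 normalised reads in wild-type control libraries, where library 2 was the highest and the other 3 were at most 3695, and 7781 to 12225 in control libraries labelled knockout. On ethanol the sum was 1242 to 1830 in wild type and 6550 to 8425 in libraries labelled knockout, and no marker was at 0 in any library. The summed level of Ctss, Cd68 and Laptm5 was 323.9 to 782.4, 824.7 to 1295, 223.6 to 310.8 and 928.1 to 1055 in the same 4 groups, also highest in library 2 among the wild-type control libraries. Of 8 markers of monocyte-derived cells tested, 4 were called higher on control diet and 6 on ethanol, among them Gpnmb (9.96-fold, limma adjusted p = 0.000363, and 10.9-fold, limma adjusted p = 0.000187) and Trem2 (4.58-fold, limma adjusted p = 0.00648, and 10.1-fold, limma adjusted p = 0.000149). On each diet 7 of the 8 differences were positive and 1 was negative. The summed level of all 9 listed monocyte markers overlapped between genotypes on both diets. It was 621.8 to 919.6 in wild-type control libraries and 519.3 to 1202 in those labelled knockout. On ethanol it was 504.1 to 864.6 and 747.7 to 1088. Of 10 hepatocyte markers, 2 were called lower on each diet and 9 had negative differences, with a summed level of 1472440 to 1758476 in wild-type control libraries, 1193378 to 1228522 in those labelled knockout, and 1354781 to 1731601 and 1060487 to 1573139 on ethanol. Alb alone made up a large part of these sums. Markers of T and NK cells (summed level at most 114.6), B cells (at most 63.44) and neutrophils (at most 128.8) were low throughout. On ethanol the T and NK sum was 15.15 to 17.2 in wild type and 36.57 to 48.19 in libraries labelled knockout, without overlap. The B cell sum was 4.582 to 12.28 and 18.21 to 21.64, also without overlap. Neutrophil sums overlapped on ethanol, and on control diet the genotypes overlapped for each of these cell types. Only 1 T and NK marker and 0 B cell markers were tested. In bulk liver, a difference in the number of cells of a type and a difference in RNA per cell cannot be told apart, and the part of these cell type markers in the differences was not tested. Without wild-type control library 2 the control differences were log2 1.62 for Ctss, 1.36 for Cd68 and 1.44 for Laptm5. Without ethanol libraries 1 and 4 labelled knockout the ethanol differences were 2.13, 1.78 and 1.70, with limma adjusted p from 0.00105 for Ctss and 0.00521 for Cd68 to 0.0217 for Laptm5, while the calls of Npc2, Scarb2 and Ppt1 ended (limma adjusted p = 0.139, 0.124 and 0.16).

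**Figure D3:**
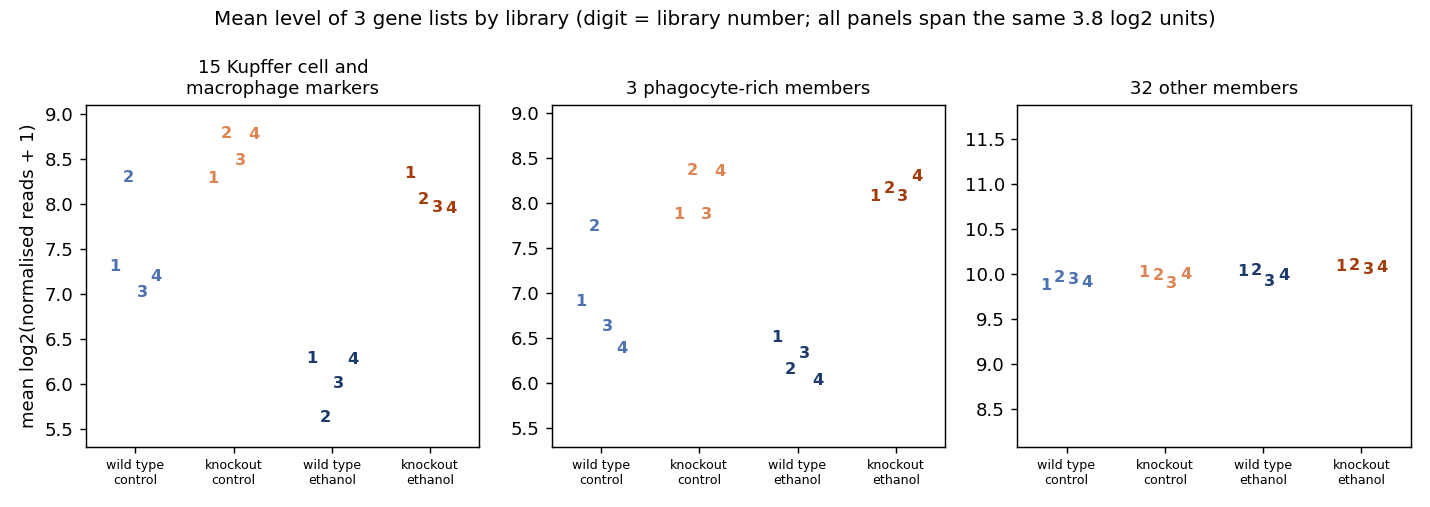
Mean log2(normalised reads + 1) of 15 Kupffer cell and macrophage markers, of the 3 phagocyte-rich members and of the other 32 members in each library, each digit a library number, on axes that span the same number of log2 units. The markers are lowest in the wild-type ethanol libraries, and those of wild-type control library 2 (8.30) lie within the range of libraries labelled knockout (7.96 to 8.79). The phagocyte-rich members lie higher in every library labelled knockout (7.88 to 8.36) than in any wild-type library (6.02 to 7.74). The other 32 lie between 9.86 and 10.09 in all 16 libraries. On ethanol they too lie higher in libraries labelled knockout (10.05 to 10.09) than in wild type (9.91 to 10.03), and on control diet the genotypes overlap.

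Among the proteases other than Ctss, only cathepsin D was called between the genotypes, and on control diet alone. Ctsd, the main aspartic protease of the lysosome, had 2279, 2544, 2941 and 2216 normalised reads in wild-type control libraries and 3391, 3359, 2946 and 3264 in those labelled knockout. The groups did not overlap, though wild-type library 3 came within a few reads of library 3 labelled knockout. Ctsd rose 1.30-fold (1.13 to 1.51, limma adjusted p = 0.0182). The call did not hold without wild-type control library 1 (limma adjusted p = 0.0614) or 4 (limma adjusted p = 0.071). On ethanol the difference was 1.20-fold, with limma adjusted p = 0.098.

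The lipid-handling members held 3 of the calls on control diet and 2 on ethanol, all higher in the libraries labelled knockout. Npc2, the soluble protein that hands cholesterol to Npc1 in the membrane, had 909.1, 1169, 1246 and 1088 normalised reads in wild-type control libraries and 1675, 1534, 1176 and 1568 in those labelled knockout. On ethanol it had 986.5, 995.1, 788.6 and 816.6 in wild type and 1333, 1248, 1214 and 1384 in libraries labelled knockout. The groups overlapped on control diet and lay apart on ethanol. Npc2 rose 1.35-fold on control diet (1.12 to 1.61, limma adjusted p = 0.0329) and 1.45-fold on ethanol (1.21 to 1.74, limma adjusted p = 0.00993).

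Psap had 5000, 5548, 5192 and 5236 normalised reads in wild-type control libraries and 6942, 7307, 5941 and 6088 in those labelled knockout, with no overlap. It rose 1.25-fold on control diet (1.09 to 1.43, limma adjusted p = 0.0319). Ppt1, which removes palmitate from proteins, had 355.0, 329.1, 309.7 and 354.0 against 393.7, 402.4, 403.3 and 469.2 on control diet, and 345.2, 315.8, 354.8 and 322.6 against 430.8, 459.7, 385.6 and 394.5 on ethanol. Libraries labelled knockout lay above wild type on both diets. Ppt1 rose 1.24-fold (1.08 to 1.41, limma adjusted p = 0.0396) and 1.25-fold (1.09 to 1.43, limma adjusted p = 0.0371).

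Most of these lipid-handling calls changed when single libraries were left out. The control call of Npc2 ended on leaving out wild-type control library 1 or 4 or library 1, 2 or 4 labelled knockout (limma adjusted p from 0.074 to 0.109), and its ethanol call with ethanol libraries 1 and 2 alone (0.209) or 3 and 4 alone (0.0544). The Psap call did not hold without wild-type control library 1, 3 or 4 or without library 1 or 2 labelled knockout (limma adjusted p from 0.0663 to 0.0951). The control call of Ppt1 was lost without any 1 of the 8 control libraries other than library 1 labelled knockout (limma adjusted p from 0.054 to 0.115). Its ethanol call was lost without any 1 of the 8 ethanol libraries other than library 3 of either genotype (limma adjusted p from 0.0554 to 0.102), and with the replicate number as a block limma adjusted p = 0.0606. Npc1, the membrane partner of Npc2, had a fold of 0.679 on control diet (limma adjusted p = 0.0605) with no overlap.

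Hexa, the alpha chain of beta-hexosaminidase, was the 1 glycosidase called between the genotypes. It had 500.9, 632.3, 623.9 and 544.9 normalised reads in wild-type control libraries and 843.3, 810.5, 619.7 and 712.3 in those labelled knockout, and library 3 labelled knockout fell within the wild-type range. Hexa rose 1.29-fold (1.11 to 1.50, limma adjusted p = 0.0279), a call that ended on leaving out wild-type control library 1 or 4 or library 1 or 2 labelled knockout (limma adjusted p from 0.0715 to 0.0939). On ethanol its fold was 1.02 (0.873 to 1.18, limma adjusted p = 0.927). Naglu, a glycosidase of heparan sulfate breakdown, lay lower without overlap on both diets in the libraries labelled knockout, at folds of 0.844 (limma adjusted p = 0.118) and 0.813 (limma adjusted p = 0.0645), neither of which passed.

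Mcoln1 and Scarb2 were the members called lower. Mcoln1, the lysosomal calcium channel, had 627.1, 599.4, 476.4 and 488.9 normalised reads in wild-type control libraries and 453.8, 419.4, 425.4 and 399.8 in those labelled knockout. The groups did not overlap, and its fold was 0.780 (0.672 to 0.905, limma adjusted p = 0.031). Scarb2, the membrane receptor that carries glucocerebrosidase to the lysosome, had 3376, 3272, 3089 and 2811 in wild type on ethanol and 2565, 2510, 2475 and 2423 in ethanol libraries labelled knockout, again with no overlap. Its fold was 0.797 (0.705 to 0.900, limma adjusted p = 0.019), and on control diet it was 0.844 (limma adjusted p = 0.0678). The Mcoln1 call did not hold without wild-type control library 1 or 2 or without library 2, 3 or 4 labelled knockout (limma adjusted p from 0.0528 to 0.105). The Scarb2 call was lost without wild-type ethanol library 1 or 2 or without ethanol library 3 or 4 labelled knockout (limma adjusted p from 0.0505 to 0.0664).

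The 5 pump subunits held 0 calls between the genotypes by limma on either diet, with 1 at an unadjusted p under 0.05 on control diet and 2 on ethanol. Their log2 differences ran from 0.02 to 0.35 on control diet and from -0.11 to 0.38 on ethanol. Lamp1 and Lamp2 gave folds of 1.06 and 0.904 on control diet and of 1.14 and 0.885 on ethanol, with 95% intervals that all included 1. Counted by overlap rather than by the test, 7 members lay wholly higher and 5 wholly lower in libraries labelled knockout on control diet, where 8.68% and 8.72% of all genes did. On ethanol 10 lay wholly higher and 4 wholly lower, against 8.36% and 7.38% of genes. The 10 were Ctss, Cd68, Laptm5, Npc2, Ppt1, Psap, Asah1 and cathepsins B, C and D.

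Ethanol moved members in both directions in wild-type mice, with Ctsl, Cd63, Hexa and Atp6v1b2 higher and Lipa, Ctss and Mcoln1 lower. In wild type 12 of the 35 were called (34.3%), against 38.0% of all genes, so the share of members was near the background. They were 7 higher and 5 lower, against 18.9% and 19.0% of all genes (5 higher and 7 lower with upper-quartile factors). In mice labelled knockout 6 were called (17.1%), against 19.2% of all genes, 4 higher and 2 lower against 10.2% and 9.01% (4 and 1 with TMM factors). Ctsl, Hexa and Atp6v1b2 were called higher in both genotypes, and Ctsh and Mcoln1 lower in both. The median log2 change of the other 32 members was 0.03 in wild type and 0.02 in mice labelled knockout, and -0.03 and -0.005 with upper-quartile factors. Without ethanol libraries 1 and 4 labelled knockout, only the call of Atp6v1b2 remained in mice labelled knockout. The comparisons of 1 group with 2 others share libraries, so genotype and ethanol differences are not independent.

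**Figure D4:**
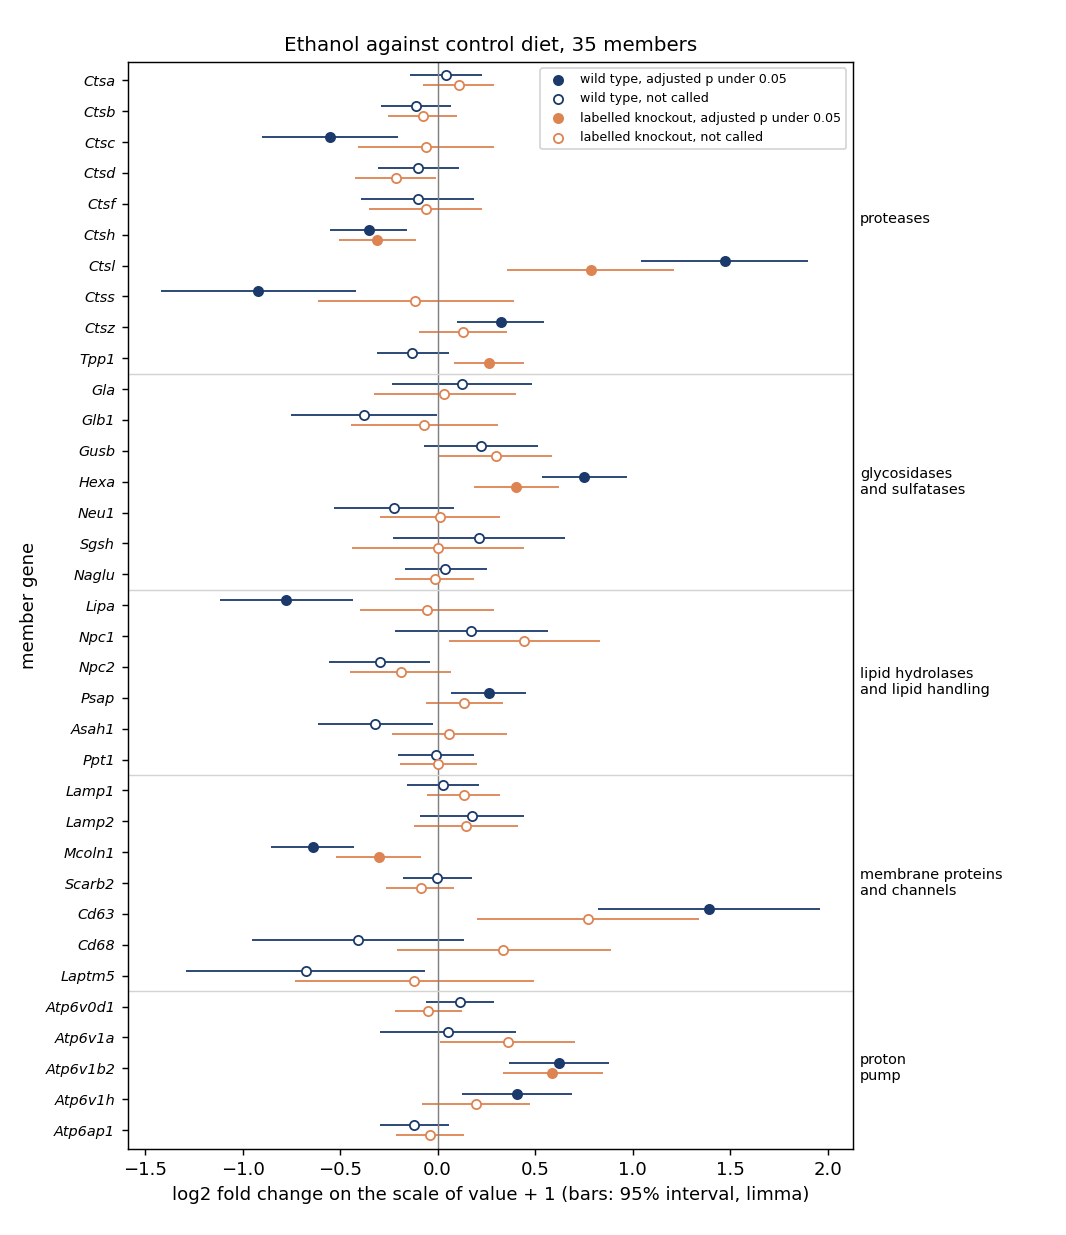
Log2 fold change between ethanol and control diet for the 35 members, by role, in wild type and in libraries labelled knockout, with 95% intervals from limma and filled points for adjusted p under 0.05. Ctsl and Cd63 lie farthest to the right and Ctss and Lipa farthest to the left in wild type.

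Cathepsin L, the cysteine protease that was already among the highest members, had 6843, 7774, 8913 and 6775 normalised reads in wild-type control libraries and 25294, 23715, 14997 and 21203 in wild type on ethanol. In mice labelled knockout it had 8658, 8021, 16571 and 10340 on control diet and 20034, 19066, 16081 and 17077 on ethanol. All wild-type ethanol libraries lay above all controls, whereas control library 3 labelled knockout lay among the ethanol libraries of its genotype. Ctsl rose 2.78-fold in wild type (2.06 to 3.73, limma adjusted p = 4.27e-05) and 1.72-fold in mice labelled knockout (1.28 to 2.32, limma adjusted p = 0.0123). The latter call was lost with ethanol libraries 3 and 4 alone (limma adjusted p = 0.11) and without ethanol libraries 1 and 4 labelled knockout (0.0996).

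Hexa had 931.2, 988.1, 967.0 and 977.0 normalised reads in wild type on ethanol and 1027, 981.8, 903.5 and 1017 in ethanol libraries labelled knockout. Both sets lay above every control library of their genotype. It rose 1.68-fold in wild type (1.45 to 1.96, limma adjusted p = 4.27e-05) and 1.32-fold in mice labelled knockout (1.14 to 1.54, limma adjusted p = 0.0118), the latter lost with ethanol libraries 3 and 4 alone (limma adjusted p = 0.106) or without ethanol libraries 1 and 4 labelled knockout (0.124). The other glycosidases and sulfatases were not called by limma in either genotype. Among them Glb1, the lysosomal beta-galactosidase, had a fold of 0.769 in wild type (limma adjusted p = 0.104).

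Atp6v1b2, the B subunit of the pump's ATP-cleaving part, had 712.9, 662.1, 617.1 and 540.8 normalised reads in wild-type control libraries and 843.9, 983.4, 886.2 and 1200 in wild type on ethanol. In mice labelled knockout it had 660.0, 863.5, 819.5 and 900.5 on control diet and 1141, 1256, 1207 and 1244 on ethanol. The diets did not overlap in either genotype. It rose 1.54-fold (1.29 to 1.84, limma adjusted p = 0.000865) and 1.50-fold (1.26 to 1.80, limma adjusted p = 0.00341), and both calls held in every alternative run. Atp6v1h, a regulatory subunit, rose 1.33-fold in wild type (limma adjusted p = 0.0221). Its ethanol values there were 1436 and 1251 in libraries 1 and 2 and 902.9 and 973.3 in libraries 3 and 4, and with libraries 3 and 4 alone the log2 change was 0.15 (limma adjusted p = 0.281). The Atp6v1h call was also lost without wild-type control library 4 (limma adjusted p = 0.0554) or wild-type ethanol library 1 (0.0844) or 2 (0.0683).

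Mcoln1 fell in both genotypes. It had 314.5, 339.1, 358.6 and 385.8 normalised reads in wild type on ethanol and 330.5, 335.1, 360.3 and 349.3 in ethanol libraries labelled knockout, below every control library of either genotype. Its fold was 0.641 in wild type (0.553 to 0.744, limma adjusted p = 0.000149) and 0.810 in mice labelled knockout (0.698 to 0.941, limma adjusted p = 0.046). The wild-type call held in every alternative run. The call in mice labelled knockout was lost without any 1 of their 8 libraries and without wild-type ethanol library 2 (limma adjusted p from 0.0512 to 0.106).

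Cd63, a tetraspanin of late endosomes and lysosomes, had 36.48, 38.77, 26.09 and 31.14 normalised reads in wild-type control libraries and 157.2, 109.5, 50.16 and 67.82 in wild type on ethanol. It had 74.6, 57.76, 44.2 and 64.84 on control diet and 100.3, 102.2, 111.7 and 94.31 on ethanol in mice labelled knockout. Ethanol lay above control in both genotypes, with wild-type ethanol libraries 1 and 2 well above 3 and 4. On control diet every library labelled knockout lay above every wild-type library. That genotype difference, log2 0.84, was the largest among the other 32 members there, but limma did not call it. Cd63 rose 2.62-fold in wild type (1.77 to 3.89, limma adjusted p = 0.000768), and by log2 1.97 with ethanol libraries 1 and 2 alone (limma adjusted p = 4.18e-05) and 0.81 with libraries 3 and 4 alone (limma adjusted p = 0.0303). In mice labelled knockout its fold was 1.71 (limma adjusted p = 0.0537). Cd63 has an annotated processed pseudogene, and how the authors' counting divided reads between them is not given in the sources used here.

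Lipa, the acid lipase that breaks down cholesteryl esters and triglycerides, had 3114, 3105, 3694 and 2959 normalised reads in wild-type control libraries and 1511, 1656, 2660 and 1847 in wild type on ethanol. In mice labelled knockout it had 2509, 3022, 1877 and 2615 on control diet and 2561, 2080, 2496 and 2408 on ethanol. Lipa was lower on ethanol in every wild-type library, and the diets overlapped in mice labelled knockout. Its fold was 0.584 in wild type (0.461 to 0.740, limma adjusted p = 0.00135) and 0.963 in mice labelled knockout (0.760 to 1.22, limma adjusted p = 0.844). The difference between these ethanol effects was log2 0.72 (limma adjusted p = 0.183), and it passed only without wild-type ethanol library 3 (log2 0.89, limma adjusted p = 0.0314). With ethanol libraries 3 and 4 alone the wild-type call of Lipa was lost (limma adjusted p = 0.0507).

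**Figure D5:**
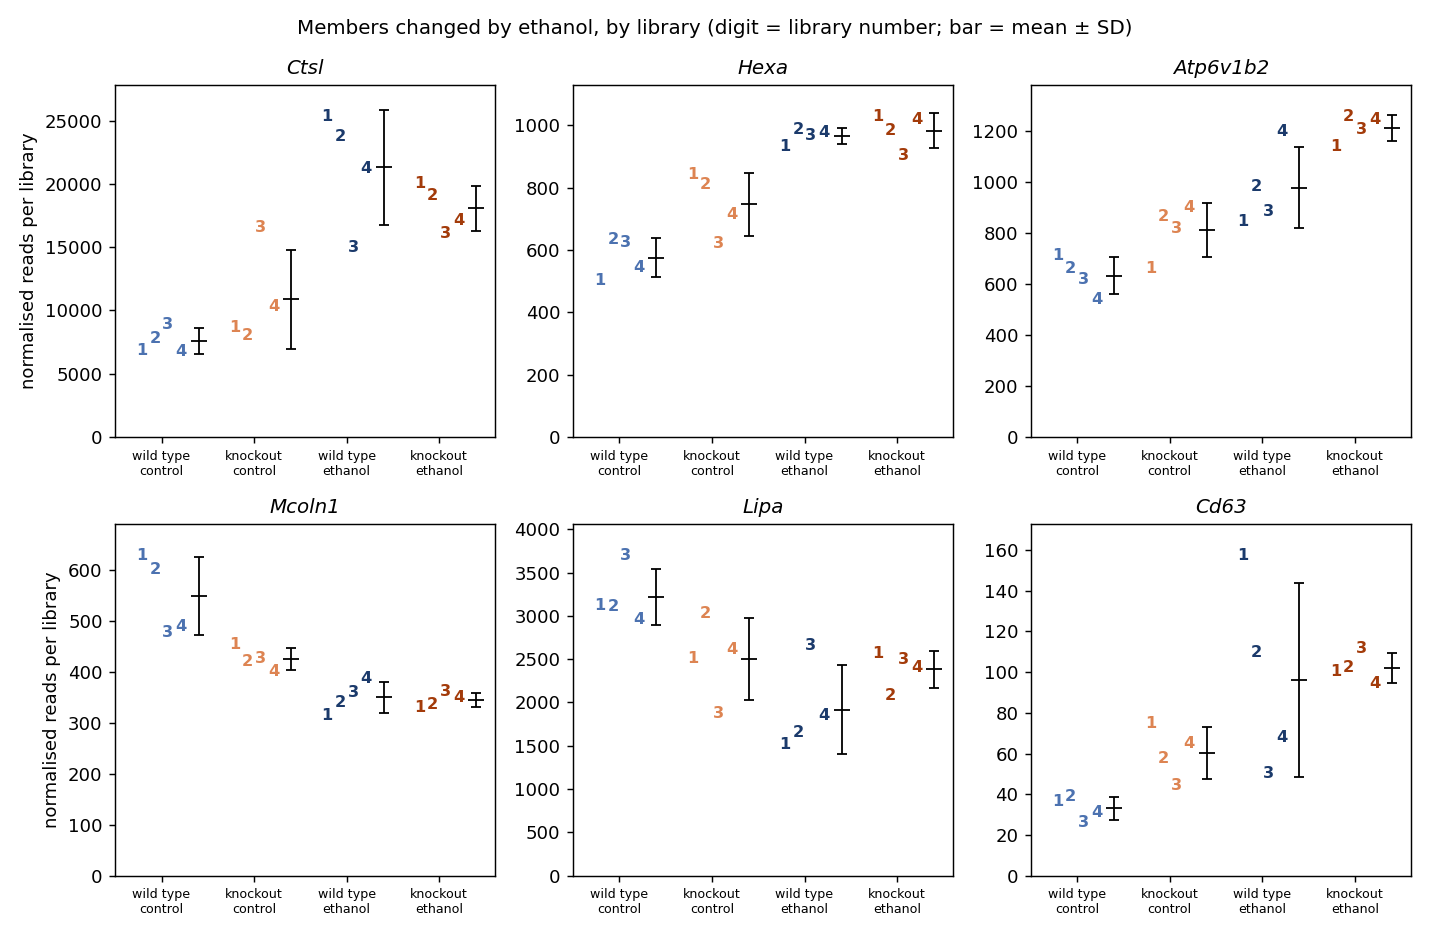
Normalised reads of Ctsl, Hexa, Atp6v1b2, Mcoln1, Lipa and Cd63 in each of the 16 libraries by group, each digit a library number, with the mean and SD of 4 libraries beside them. In wild type the ethanol libraries lie above the control libraries for Ctsl, Hexa, Atp6v1b2 and Cd63 and below them for Mcoln1 and Lipa.

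Among the remaining proteases, cathepsin H (Ctsh), an aminopeptidase, had 2759, 3123, 3176 and 3255 normalised reads in wild-type control libraries and 2498, 2519, 2225 and 2385 in wild type on ethanol. It had 3340, 2948, 2640 and 2802 on control diet and 2476, 2520, 2106 and 2350.0 on ethanol in mice labelled knockout. Ethanol lay below control without overlap in both genotypes, at folds of 0.783 (0.682 to 0.898, limma adjusted p = 0.00708) and 0.807 (0.704 to 0.926, limma adjusted p = 0.029). The call in mice labelled knockout was lost without their control library 1 or 2 or ethanol library 3 or 4 (limma adjusted p from 0.0623 to 0.0887), and the wild-type call with ethanol libraries 1 and 2 alone (0.0584).

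In wild type alone, cathepsin C (Ctsc), which activates granule proteases of immune cells, had a fold of 0.683 (limma adjusted p = 0.0149), lost without wild-type control library 2 (limma adjusted p = 0.0567). Ctsz rose 1.25-fold (limma adjusted p = 0.0251) and Psap rose 1.20-fold (limma adjusted p = 0.0324). The Ctsz call did not hold without wild-type control library 1 (limma adjusted p = 0.0843) or wild-type ethanol library 2 (0.0631). The Psap call did not hold without wild-type control library 1, 3 or 4 or wild-type ethanol library 2 or 4 (limma adjusted p from 0.0642 to 0.0886). Tpp1, an aminopeptidase, rose 1.20-fold in mice labelled knockout (limma adjusted p = 0.0407), a call lost without any 1 of 8 libraries (limma adjusted p from 0.05 to 0.115). These were control libraries 1, 2 and 4 and ethanol libraries 1, 2 and 4 labelled knockout, wild-type control library 1 and wild-type ethanol library 2.

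Of the phagocyte-rich 3, Ctss fell with ethanol in wild type, and Cd68 and Laptm5 had lower means that did not pass. The fold of Ctss was 0.529 (0.374 to 0.748, limma adjusted p = 0.00592), and every wild-type ethanol library lay below every wild-type control library. Laptm5 had a fold of 0.625 (limma adjusted p = 0.0763) and Cd68 of 0.754 (limma adjusted p = 0.232), with overlap in both. Without wild-type control library 2 the log2 change was -0.62 for Ctss (limma adjusted p = 0.0132), -0.40 for Laptm5 (0.269) and -0.16 for Cd68 (0.637), and with ethanol libraries 1 and 2 alone the Ctss call was lost (0.0601). Of the 15 macrophage markers 13 were called lower with ethanol in wild type and 3 in mice labelled knockout. Their median log2 change was -1.42 and -0.375, against -0.68 and -0.11 for the phagocyte-rich 3. Of 6 sinusoidal endothelial markers 3 rose by limma with ethanol in wild type and 2 in mice labelled knockout, and 0 fell. The counts were the same for 6 stellate cell markers. These shares were 50% and 33.3%, against 38.0% and 19.2% of all genes. Endothelial sums were 1173 to 1468 on control diet and 1903 to 2295 on ethanol in wild type. In mice labelled knockout they were 1071 to 1677 and 1676 to 2081. The part of these markers in the members' differences was not tested. In mice labelled knockout the folds of Ctss, Cd68 and Laptm5 were 0.924 (0.653 to 1.31), 1.26 (0.865 to 1.85) and 0.921 (0.602 to 1.41), and none of the 3 was called by limma or had an unadjusted p under 0.05.

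Whether ethanol acted differently in the genotypes was tested by the difference of the ethanol effects. By limma 0 of the 35 members were called, where 0.347% of all genes were (0.143% higher and 0.204% lower), and 6 had an unadjusted p under 0.05, namely Tpp1, Lipa, Ctsl, Ctss, Hexa and Mcoln1. edgeR and DESeq2 on the recovered reads also called 0 members. The difference was log2 0.81 for Ctss (SE 0.335, limma adjusted p = 0.310), 0.74 for Cd68 (SE 0.366, limma adjusted p = 0.397) and 0.56 for Laptm5 (SE 0.411, limma adjusted p = 0.580). For Ctsl it was -0.69 (SE 0.286, limma adjusted p = 0.310) and for Hexa -0.35 (SE 0.146, limma adjusted p = 0.317). A member called with ethanol in 1 genotype and not in the other is therefore not shown to differ between them.

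Calls were also counted by the E-box in the promoter. Of the 12 with CACGTG, Ctsd and Mcoln1 were called between genotypes on control diet, 0 on ethanol by limma (4 at an unadjusted p under 0.05), and Ctsl and Mcoln1 with ethanol in each genotype. Of the 17 with a window and no CACGTG, 7 were called between genotypes on control diet, 6 on ethanol, 7 with ethanol in wild type and 2 in mice labelled knockout. These are 16.7%, 0%, 16.7% and 16.7% of the 12 and 41.2%, 35.3%, 41.2% and 11.8% of the 17, against 11.6%, 9.88%, 38.0% and 19.2% of all genes. The 17 include the phagocyte-rich 3, and the shares were not tested against each other.

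Other genes of the lysosome were counted in the same comparisons, where 11.6% of all genes were called between genotypes on control diet, 9.88% on ethanol, 38.0% with ethanol in wild type and 19.2% in mice labelled knockout. Of 28 further hydrolases tested, 1 was called higher and 1 lower between genotypes on control diet, 1 and 2 on ethanol, 3 and 3 with ethanol in wild type and 2 and 1 in mice labelled knockout, shares of 7.14%, 10.7%, 21.4% and 10.7%. Ids, the iduronate sulfatase, was lower in libraries labelled knockout on both diets, at folds of 0.542 (limma adjusted p = 0.00222) and 0.569 (limma adjusted p = 0.00378), and Lgmn, the asparaginyl endopeptidase legumain, rose 1.61-fold on control diet (limma adjusted p = 0.0283). Of 25 further membrane proteins and transporters, 1 was called higher and 1 lower between genotypes on control diet, 2 and 2 on ethanol, 7 and 4 with ethanol in wild type and 4 and 1 in mice labelled knockout, shares of 8.0%, 16%, 44.0% and 20%. Slc11a1, a metal transporter of phagocyte lysosomes, was higher in libraries labelled knockout, 2.31-fold on control diet (limma adjusted p = 0.000664) and 2.43-fold on ethanol (limma adjusted p = 0.000303). Slc17a5 was lower in them on both diets, at folds of 0.637 (limma adjusted p = 0.00156) and 0.746 (limma adjusted p = 0.0276). On ethanol alone, Tpcn2 was higher at 1.60-fold (limma adjusted p = 0.0191) and Sidt2 lower at a fold of 0.749 (limma adjusted p = 0.0295). Sidt2 rose 1.66-fold (limma adjusted p = 0.00014) with ethanol in wild type.

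Of 13 further pump subunits, 5 rose and 0 fell by limma with ethanol in wild type, and 3 rose and 0 fell in mice labelled knockout. These shares, 38.5% and 23.1%, were near the 38.0% and 19.2% of all genes called in either direction. By direction, 18.9% and 10.2% of all genes were called higher, and 19.0% and 9.01% lower. Atp6v0e rose 2.18-fold (limma adjusted p = 1.19e-05), Atp6v0a1 2.19-fold (limma adjusted p = 1.41e-05), Atp6v0d2 6.46-fold (limma adjusted p = 0.000127) and Atp6v0c 1.50-fold (limma adjusted p = 0.000395) in wild type. Between genotypes 2 were called higher on control diet, and 1 higher and 3 lower on ethanol, 15.4% and 30.8% against 11.6% and 9.88%. Tcirg1, the a3 subunit known from osteoclasts and macrophages, was higher on both diets, at 1.64-fold (limma adjusted p = 0.00827) and 1.63-fold (limma adjusted p = 0.00916), and Atp6v0d2 was lower on ethanol at a fold of 0.320 (limma adjusted p = 0.0187). Atp6v0e was 1.41-fold higher on control diet (limma adjusted p = 0.0235). Atp6v0a1 and Atp6v0c were lower on ethanol, at folds of 0.724 (limma adjusted p = 0.04) and 0.79 (limma adjusted p = 0.048). Of 21 sorting genes, 1 was called higher and 2 lower on control diet, 1 and 1 on ethanol, 1 and 2 with ethanol in wild type, and 0 and 3 in mice labelled knockout, shares of 14.3%, 9.52%, 14.3% and 14.3%.

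Of 18 regulators of lysosomal genes, 1 was called between genotypes on each diet, 7 with ethanol in wild type (3 higher, 4 lower) and 1 in mice labelled knockout. The 7 are 38.9%, against 38.0% of all genes, and each single call is 5.56%, against 11.6%, 9.88% and 19.2%. Tfe3, which binds the CLEAR element, rose 1.61-fold with ethanol in wild type (limma adjusted p = 6.89e-05) and gave 1.10-fold in mice labelled knockout (limma adjusted p = 0.343), and the difference between them was log2 -0.55 (limma adjusted p = 0.108). Its relative Tfeb was not called in any of the 5 comparisons, with a fold of 0.748 in wild type on ethanol (limma adjusted p = 0.0853). Rragd, a GTPase that ties mTORC1 to the lysosome, was 3.30-fold higher on control diet (limma adjusted p = 0.0221) and 3.67-fold higher on ethanol (limma adjusted p = 0.0145) in libraries labelled knockout.

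Within groups the members differed in how steady they were. The pooled SD of log2 values within groups ran from 0.073 for Ctsb to 0.467 for Laptm5. Over all 16 libraries, differences between groups included, the highest library was 1.27 times the lowest for Atp6v0d1 and for Atp6ap1, and 7.46 times for Laptm5. Of the 33 calls of members over the 4 comparisons, 11 held in every alternative run. These 11 were Ctss and Cd68 between genotypes on both diets, Laptm5 between genotypes on ethanol, Ctsl, Hexa, Mcoln1 and Cd63 with ethanol in wild type, and Atp6v1b2 with ethanol in both genotypes.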

How the data were processed

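The deposited table holds, for every gene in every library, a signal that is a read count scaled by the authors with 1 size factor per library. The submitters' processing notes name HISAT2 2.1.0.13, HTSeq, edgeR and build GRCm38. The annotation and strand setting were not given in the sources used here, so reads of a member and of an overlapping gene on the opposite strand cannot be told apart. Whole reads were recovered for 100% of values within 0.01 in all 16 libraries, at 11425136 to 13864862 reads per library. Of 27288 gene identifiers 27242 matched a symbol of GENCODE M21 and 46 did not. Replicates differed beyond sampling noise (mean chi-square per gene from 10.9 to 118). In wild type on ethanol it was 14.2 between libraries 1 and 2 and 38.5 between 3 and 4. Across these pairs it was 69.4 to 118. Control library 3 labelled knockout differed from the others of its group by 35.5 to 67.4.

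The main test was limma 3.58.1 (R 4.3.3) over 13256 genes with a mean of at least 10, on the log2(value + 1) scale that the fold changes share, with 1 mean per group and a mean-variance trend. A gene was called where its Benjamini-Hochberg adjusted p, taken over all genes tested, was under 0.05. The members and lists were chosen with earlier results of these data known, and the PU box was added after the values were seen. Per-library values are given for Ctss, Cd68 and Laptm5 and, of the other 32, for up to 4 called members with the smallest p per comparison and a few further called members. Of each list of other lysosomal genes, those named come from the 4 called with the smallest p per comparison, with Tfeb added for its role.

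To see whether replicate numbers pair libraries, deviations from the group mean were correlated across genes. Same-numbered ethanol libraries correlated at 0.102 to 0.246, all over 0.1, and were taken as paired by that rule alone, as no label explains the numbers. For 2 of the 4 (1 and 4) the best partner had another number (2 and 3), so a split of libraries 1 and 2 from 3 and 4 cannot be told apart from pairing. In the other comparisons the numbers paired nothing. The main fit did not pair libraries, so its p-values are unpaired. Only 1 alternative used the replicate number, as a block over all 16 libraries, control libraries included. The settings changed were the pseudocount (0.25 and 4), the filter (none, and a mean of 50), the trend, the libraries in the fit, the scaling (TMM, upper quartile) and the replicate block. edgeR 4.0.16 and DESeq2 1.42.0 were run on the recovered reads. Of all genes, edgeR called 1525 for the genotype on control diet, 1281 for the genotype on ethanol, 5013 for ethanol in wild type, 2679 for ethanol in mice labelled knockout and 30 for the difference of the ethanol effects. Promoter windows are from RefSeq (GRCm38.p6).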

Additional observations from a re-analysis of the deposited data

Results flagged for a closer look

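Of 140 sets of 4 libraries (35 members in 4 groups), 8 held a library far from the other 3 by Dixon's test, whose threshold chance passes in about 1 set in 20, or 7 of 140. Ctss was 489.1 normalised reads in wild-type control library 2 against 209.0 to 222.1 in the others. Npc1 was 3035 in wild-type ethanol library 4 against 1575 to 1776, and without that library Npc1 was called lower in control libraries labelled knockout (log2 -0.56, limma adjusted p = 0.0139) and higher with ethanol in mice labelled knockout (log2 0.44, limma adjusted p = 0.0306). Naglu was 414.3 in the same library against 373.4 to 379.9. Among control libraries labelled knockout, Ctsb was 7152 in library 3 against 8053 to 8145, Tpp1 was 1058 in library 2 against 1150.0 to 1160, Atp6ap1 was 995.1 in library 2 against 866.4 to 875.5, and Ppt1 was 469.2 in library 4 against 393.7 to 403.3. Atp6ap1 was also 994.1 in ethanol library 4 labelled knockout against 825.9 to 854.1.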

How the results depend on the processing

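Of 33 calls, none changed direction and 22 were lost in at least 1 alternative. The count of members called between genotypes on control diet (9) was 4 with no filter, 5 with only the groups compared and 3 to 11 with 1 library left out; on ethanol (6) it was 3 without ethanol libraries 1 and 4 labelled knockout, 3 with ethanol libraries 1 and 2 alone, 3 with 3 and 4 alone, and 4 to 7 with 1 library left out, and higher, 9, with upper-quartile factors and 8 by DESeq2. On control diet DESeq2 gave 12. With ethanol in wild type (12) it was 9 to 13 with 1 library left out. With ethanol in mice labelled knockout (6) it was 3 with no filter, 1 without ethanol libraries 1 and 4 labelled knockout, 2 with libraries 3 and 4 alone, and 3 to 7 with 1 library left out. For the difference of the ethanol effects (0) it was 0 to 1, and only the groups compared was not run there, being the same fit. With the replicate block the counts were 8, 6, 14, 5 and 0. The uncalled ethanol effects of Ctss and Laptm5 in mice labelled knockout (log2 -0.11 and -0.12) ranged from -0.254 to 0.009 and from -0.224 to 0.012 with 1 library left out, positive without control library 2 labelled knockout; the cause was not tested. Over all genes, the difference of the ethanol effects called 46 genes, 270 by DESeq2, 264 with ethanol libraries 1 and 2 alone, 0 with 3 and 4 alone, 16 with no trend, 30 by edgeR, 24 with the block and 37 with upper-quartile factors. The genotype on ethanol called 434 genes with libraries 3 and 4 alone, and ethanol in mice labelled knockout 1370. Upper-quartile factors moved the share of higher calls between genotypes on ethanol from 62.1% to 73.3%.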
